A study of Rattus norvegicus with 56 samples.

Results

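miR-190a-5p is the mature microRNA cut from the 5′ arm of the Mir190 hairpin. It was followed in rat fetuses exposed to dimethadione (DMO), a compound given to pregnant rats to induce ventricular septal defects (VSDs). It was selected on its counts in fetal myocardium, which were higher in both DMO groups than in the control group, so those 2 differences are given as a description and were not tested. It is 1 of 661 microRNAs listed for myocardium and 1 of 523 listed for amniotic fluid. It is not among the 518 microRNAs listed for maternal serum, so it has no value there.

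MicroRNAs are short noncoding RNAs that pair with messenger RNAs, mainly through a stretch of bases near the 5′ end called the seed, and lower their translation and stability. The Mir190 hairpin lies within Tln2, the gene of talin 2, a protein that links integrins to the actin cytoskeleton and is abundant in heart and other striated muscle. A microRNA inside a gene can be made from the transcript of that gene or from one of its own. Among the targets described for miR-190a-5p is PHLPP1, a phosphatase that removes an activating phosphate from the kinase Akt.

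All samples came from Sprague-Dawley rats on embryonic day 19. From embryonic day 8, dams of the DMO group were gavaged with DMO (60 mg/ml, 5 ml/kg) every 12 h for 6 doses. Dams of the negative control (NC) group received distilled water on the same schedule. Fetuses of DMO dams with a VSD and normally arranged major vessels formed the VSD group, and fetuses of DMO dams with an intact septum formed the non-VSD group. Fetuses that looked abnormal from outside were excluded by the study, and both DMO groups shared the drug exposure and differed in the septum. There were 7 samples per group, from all 3 groups for myocardium and for amniotic fluid and from NC and VSD for maternal serum, which makes 56. Myocardial RNA came from paraffin blocks of the heart, so one sample holds every cell type of the block. The dam of each sample is not named in the labels, so litter mates cannot be told from unrelated fetuses and p-values measure only the spread between these samples.

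Total microRNA counts per library were between 1694811 and 9371130 in myocardium, between 78188 and 331787 in amniotic fluid and between 147609 and 581350 in maternal serum. All levels are given as CPM, with library totals scaled by TMM (trimmed mean of M values). Cardiac and skeletal muscle microRNAs were read in every myocardium library, with none of the 9 listed members at 0 in any group. Their summed level was 13483 to 245172 CPM in NC, 57084 to 111075 CPM in non-VSD and 14384 to 93136 CPM in VSD. NC replicate 2 stood apart from the other NC libraries. It had the lowest muscle sum of NC, at 13483 CPM, and the highest sum of the 8 epithelial microRNAs, at 14234 CPM against 250 to 5211 CPM in the other NC libraries. VSD replicate 1 was alike in both respects, at 14385 and 15250 CPM. VSD replicate 4 came near it, at 21941 and 12120 CPM. VSD replicate 5 also had a high epithelial sum, 11596 CPM, with a muscle sum of 49851 CPM. Fewer cells of a type and less RNA per cell cannot be told apart in such bulk samples.

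The sequences are shown because 2 mature rat microRNAs carry the same seed and differ only towards the 3′ end. They are written 5′ to 3′ from the RefSeq annotation of GRCr8, with the seed, bases 2 to 8, in capitals.
miR-190a-5p: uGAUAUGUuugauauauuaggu
miR-190b-5p: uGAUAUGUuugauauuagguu
miR-190b-3p: aACUAAAUgucaaacauucu
miR-190a-5p has 22 bases and lies at chr8:76732228-76732249 on the minus strand, the strand of Tln2. Whether that is an exon or an intron of Tln2 was not resolved here. miR-190b-5p has 21 bases and lies in a separate gene, Mir190b, at chr2:177812471-177812491 on the plus strand, with no gene of the reference table around it. miR-190b-3p, from the other arm of that hairpin, has another seed and was not analysed here. The first 15 bases of miR-190a-5p and miR-190b-5p are identical, and they were the only 2 mature microRNAs of the table with the seed GAUAUGU. Reads that end early could be assigned to either, so a part of each count is uncertain. miR-190a-5p also had the lowest share of G and C among 693 mature microRNAs, at 22.7% against a median of 47.8%.

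In NC myocardium, miR-190a-5p was read in every library. Replicates 1 to 7 had 22.6, 15.9, 15.6, 10, 11.2, 19.7 and 37.8 CPM, from 140, 183, 52, 32, 41, 142 and 226 counts. All but replicate 7 were at or below 22.6 CPM. The lowest level, in NC replicate 4, had a 95% Poisson interval of 6.85 to 14.1 CPM, which covers counting error only.

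In non-VSD myocardium, replicates 1 to 7 had 49.0, 45.1, 59.5, 57.6, 32.9, 20.2 and 23.3 CPM, from 293, 308, 591, 259, 159, 80 and 132 counts. Of these libraries, 4 exceeded every NC library, and replicates 5, 6 and 7 fell within the NC range. In VSD myocardium, replicates 1 to 7 had 49.8, 74.2, 77, 22.7, 48.9, 24.7 and 52.9 CPM, from 580, 578, 145, 269, 472, 179 and 500 counts. Of these, 5 exceeded every NC library, and replicates 4 and 6 fell within the NC range. The lowest value of each DMO group still exceeded the NC median of 15.9 CPM.

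**Figure D1:**
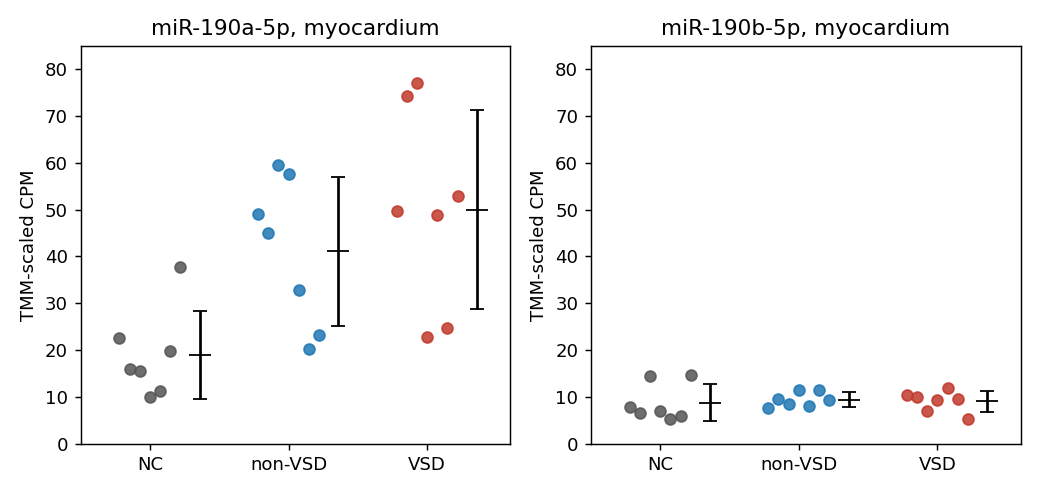
Levels of miR-190a-5p (left) and miR-190b-5p (right) in myocardium, in TMM-scaled CPM on a linear axis from 0. Each point is 1 library, and the bars give the mean and SD of 7 libraries. miR-190a-5p means were 19 (NC), 41.1 (non-VSD) and 50.0 CPM (VSD), and the 3 groups of miR-190b-5p overlapped.

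The group means were 19 ± 9.39 CPM in NC, 41.1 ± 15.9 CPM in non-VSD and 50.0 ± 21.3 CPM in VSD (SD, n = 7 each). By median rank among the 661 listed microRNAs, miR-190a-5p stood at place 305 in NC, 242 in non-VSD and 248 in VSD, a microRNA of middle abundance in this tissue. The log2 fold change in the edgeR fit was 1.39 (SE 0.34) for VSD against NC, a ratio of 2.62, and 1.17 (SE 0.32) for non-VSD against NC, a ratio of 2.25. Ordered by log2 fold change, it was in place 9 of 469 microRNAs and in place 7 of 456. These comparisons share the NC libraries and chose the microRNA, so they carry no test here. Without NC replicate 2, the log2 fold changes were 1.31 and 1.14.

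The study's definition of a DE-microRNA, an unadjusted p below 0.05 and a ratio of 2 or more, or of 0.5 or less, was met in the higher direction by 12 of 469 microRNAs (2.56%) for VSD and by 8 of 456 (1.75%) for non-VSD. These counts include miR-190a-5p, whose place in them is fixed by how it was chosen and is no result. Of the other microRNAs among 452 tested in both comparisons, 2 met it in both, namely miR-135b-5p, with log2 fold changes of 2.61 (SE 0.97) and 2.0 (SE 0.90), and miR-136-5p, with 1.02 (SE 0.42) and 1.02 (SE 0.44). Both are named here because of their values. miR-136-5p is one of the many microRNAs of the imprinted Dlk1-Dio3 region. After adjustment over all microRNAs by edgeR's quasi-likelihood test, 2 microRNAs (0.426%), miR-146a-5p and miR-6329, passed 0.05 for VSD and 1 (0.219%), miR-218a-5p, for non-VSD. NC replicate 2 bore on these counts. Without it, 47 of 474 microRNAs met the definition in the higher direction for VSD and 12 of 455 for non-VSD. The adjusted threshold was then passed by 77 and 19 in either direction. VSD replicate 1 was the VSD library most like NC replicate 2 in muscle and epithelial sums. Without it, 28 of 473 microRNAs met the definition in either direction for VSD, and 0 passed the adjusted threshold. The adjusted count for VSD was also 0 without NC replicate 1, NC replicate 3 or VSD replicate 5. Without NC replicate 2, 7 of 454 microRNAs tested in both comparisons met the definition in the higher direction in both. Beside miR-190a-5p, they were miR-135b-5p, miR-136-5p, miR-29b-3p, miR-376b-5p, miR-497-5p and miR-96-5p. In relation to the median of all microRNAs tested, the log2 fold change of miR-190a-5p was 1.43 for VSD and 1.24 for non-VSD. With libraries scaled by their totals alone, those medians moved to 0.32 and 0.13 and the relative log2 fold changes were 1.45 and 1.24.

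VSD and non-VSD myocardium compare 2 groups of fetuses with the same exposure and a different septum. This difference was not used to choose miR-190a-5p, but both groups had to lie above NC, which partly fixes how far apart they could be. The VSD and non-VSD ranges, 22.7 to 77 and 20.2 to 59.5 CPM, overlapped over most of their width, and 2 VSD libraries exceeded every non-VSD library. The log2 fold change of VSD against non-VSD was 0.28 (SE 0.33), with a 95% interval of -0.41 to 0.96 and an adjusted p of 0.694 by edgeR's quasi-likelihood test. An exact two-sided permutation test over 3432 groupings gave a difference of 0.26 in mean log2 CPM with p = 0.466 (0.621 after adjustment over 4 such tests). A higher or lower level in VSD than in non-VSD was thus not detected, and the interval does not show that the levels are equal. In this comparison 25 of 483 microRNAs (5.18%) met the DE-microRNA definition, miR-190a-5p not among them.

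miR-190b-5p, the microRNA with the same seed, had a lower level, and no difference between groups was detected. Its level in NC replicates 1 to 7 was 7.92, 6.50, 14.4, 6.89, 5.18, 5.83 and 14.7 CPM. It was 7.52, 9.53, 8.55, 11.4, 8.06, 11.4 and 9.36 CPM in non-VSD and 10.5, 9.89, 6.91, 9.28, 11.9, 9.54 and 5.29 CPM in VSD. No library of either DMO group exceeded the highest NC library. The means were 8.78 ± 4.04 CPM in NC, 9.39 ± 1.51 CPM in non-VSD and 9.04 ± 2.23 CPM in VSD (SD, n = 7 each).

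By edgeR's quasi-likelihood test, the log2 fold change of miR-190b-5p was 0.05 (SE 0.29, 95% interval -0.56 to 0.66, adjusted p = 0.928) for VSD against NC. It was 0.14 (SE 0.27, 95% interval -0.42 to 0.71, edgeR adjusted p = 0.874) for non-VSD against NC. Between VSD and non-VSD it was -0.05 (SE 0.25, 95% interval -0.57 to 0.48, edgeR adjusted p = 0.926). That sign turned to 0.11 when libraries were scaled by their totals alone.

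The ratio of miR-190a-5p to miR-190b-5p counts within a library does not depend on the scaling of libraries. It was between 1.08 and 3.38 in NC, with a median of 2.44. It was between 1.78 and 6.95 in non-VSD, with a median of 4.74, and between 2.45 and 11.2 in VSD, with a median of 4.75. In each DMO group, 5 of 7 libraries had a ratio above every NC library. The non-VSD exceptions were replicates 6 and 7 and the VSD exceptions were replicates 4 and 6, libraries that were also within the NC range of miR-190a-5p. The highest VSD ratio, 11.2 in replicate 3, rested on 145 and 13 counts. Because the ratio holds the values that chose miR-190a-5p, it is a description.

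**Figure D2:**
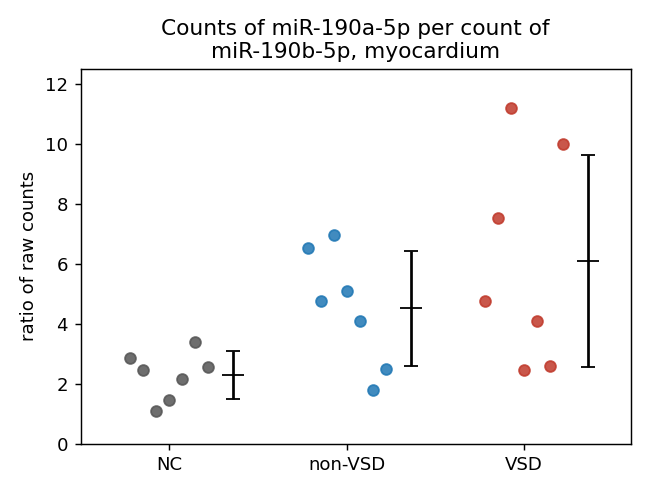
Counts of miR-190a-5p per count of miR-190b-5p in each myocardium library, by group, on a linear axis from 0, with the mean and SD of 7 libraries. NC libraries lay between 1.08 and 3.38, and 5 of 7 libraries of each DMO group lay above that range.

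The other arm of the hairpin, miR-190a-3p, was near the limit of detection. It had 21 counts over all NC libraries, 16 over non-VSD and 31 over VSD, with at most 9 in a library, and it was read in 5, 3 and 7 libraries. It therefore made up 2.51% of the counts of both arms in NC, 0.871% in non-VSD and 1.13% in VSD, so the 5′ arm was the predominant product in each group. It did not pass the filter on low counts and was not tested.

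Among 482 microRNAs compared over the 21 myocardium libraries, the pattern most like that of miR-190a-5p was that of miR-301a-3p, with a Spearman correlation of 0.93. miR-342-3p (0.82), miR-29b-3p (0.79), miR-146a-5p (0.78) and miR-130a-3p (0.73) followed. These libraries fall into groups that differ in miR-190a-5p, so the correlation was also taken after each group's mean was subtracted. It then was 0.89 for miR-301a-3p and 0.89 for miR-342-3p, followed by miR-30b-5p (0.84), miR-17-5p (0.77) and miR-652-5p (0.77). It was 0.40 for miR-29b-3p. The correlation with miR-190b-5p was 0.21, and -0.01 with group means subtracted. All of these points share their library, its depth and its scaling. The microRNAs most like and most opposed to miR-190a-5p were picked over the same libraries that chose miR-190a-5p. Their differences from NC are thus partly fixed by that choice, and the p-values given for them below are no independent tests.

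miR-301a-3p belongs to the miR-130 family, as miR-130a-3p does. Its NC replicates 1 to 7 had 53.7, 37.3, 37.5, 21.9, 43.3, 43.0 and 76.7 CPM. Its VSD replicates had 120, 121, 194, 56.8, 91.4, 43.7 and 86.7 CPM, and its non-VSD replicates had 119, 86.3, 90.6, 97.7, 56, 56.9 and 55.1 CPM. NC replicate 7, non-VSD replicates 5 to 7 and VSD replicates 4 and 6 were thus placed for miR-301a-3p as they were for miR-190a-5p. Its log2 fold change was 1.18 (SE 0.33, edgeR adjusted p = 0.0716) for VSD and 0.89 (SE 0.26, edgeR adjusted p = 0.0925) for non-VSD, both against NC.

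miR-342-3p, another microRNA made within a protein-coding gene, and miR-29b-3p, which represses collagens and other matrix genes, have other seeds and a higher share of G and C, 52.2% and 34.8%.
miR-342-3p: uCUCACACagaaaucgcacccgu
miR-29b-3p: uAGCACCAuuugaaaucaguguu
miR-342-3p had means of 248 ± 51.6 CPM in NC, 311 ± 143 CPM in non-VSD and 367 ± 125 CPM in VSD (SD, n = 7 each). Its log2 fold changes against NC, 0.56 (SE 0.22, edgeR adjusted p = 0.164) for VSD and 0.37 (SE 0.27, edgeR adjusted p = 0.559) for non-VSD, were smaller than those of miR-190a-5p. miR-29b-3p was scarce, at 3.83 ± 1.29, 7.54 ± 2.15 and 8.63 ± 3.08 CPM in NC, non-VSD and VSD (SD, n = 7 each). miR-146a-5p, a brake on inflammatory signalling through NF-kB, rose in VSD by a log2 fold change of 1.09 (SE 0.18, edgeR adjusted p = 0.00787). In non-VSD its log2 fold change was 0.83 (SE 0.23, edgeR adjusted p = 0.0910).

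**Figure D3:**
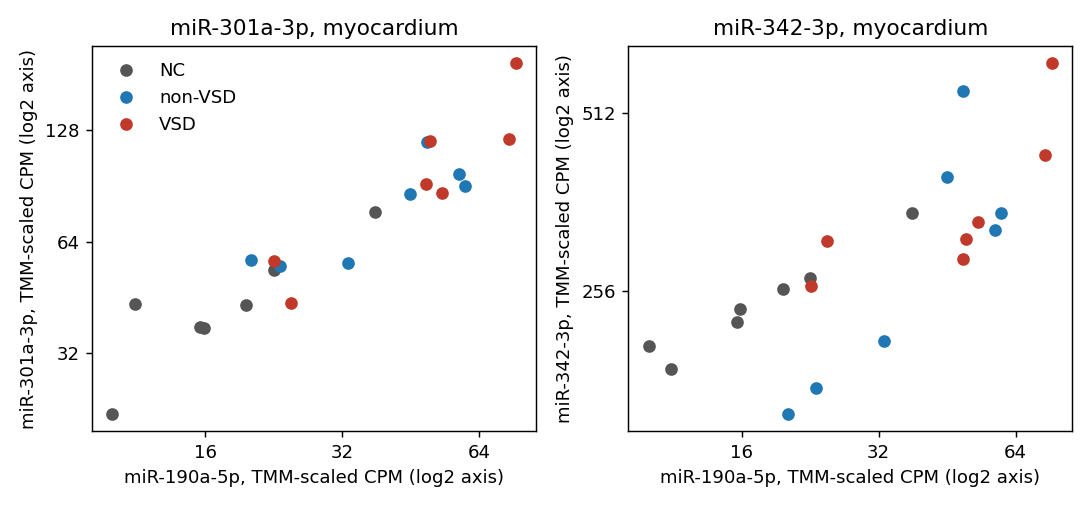
Levels of miR-301a-3p (left) and miR-342-3p (right) against miR-190a-5p in the 21 myocardium libraries, all in TMM-scaled CPM on log2 axes. Each point is 1 library, coloured by group. The Spearman correlations were 0.93 and 0.82 over all libraries, and 0.89 for each with group means subtracted.

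The patterns most opposed to that of miR-190a-5p were those of miR-106b-3p (-0.77), miR-148b-3p (-0.73) and miR-6329 (-0.71), the last tied with miR-27a-5p. In VSD, miR-6329 fell by 1.60 on the log2 scale (SE 0.32, edgeR adjusted p = 0.0301). In non-VSD its log2 fold change was -1.24 (SE 0.27, edgeR adjusted p = 0.0533).

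A list of 20 microRNAs of heart development and remodelling was set beside miR-190a-5p. In VSD against NC, 1 of the 20 met the DE-microRNA definition in the higher direction and none in the lower, against 6.82% of all microRNAs in either direction. The member was miR-29b-3p, with a log2 fold change of 1.15 (SE 0.30, edgeR adjusted p = 0.0645). In non-VSD against NC none of the 20 met it in either direction, against 4.17% of all. There miR-29b-3p was just under the ratio of 2, at a log2 fold change of 1.0 (SE 0.28, edgeR adjusted p = 0.091). At an unadjusted p below 0.05 alone in edgeR, 3 of the 20 were higher and 2 lower in VSD, beside 6.61% and 12.6% of all microRNAs. In non-VSD 5 were higher and 2 lower, beside 8.55% and 8.99%. The lower members were the same in both comparisons, which share the NC libraries. They were miR-30a-5p, at -0.43 (SE 0.14) and -0.76 (SE 0.18), and miR-92a-3p, at -0.78 (SE 0.25) and -0.70 (SE 0.22), as log2 fold changes in VSD and non-VSD. The higher members were miR-218a-5p, miR-29a-3p and miR-29b-3p in VSD, and miR-126a-3p, miR-218a-5p, miR-24-3p, miR-29b-3p and miR-29c-3p in non-VSD. The member past the adjusted threshold was miR-218a-5p, a microRNA hosted by the Slit genes, which rose in non-VSD by a log2 fold change of 0.88 (SE 0.17, edgeR adjusted p = 0.0427). The median log2 fold change of the list was -0.03 for VSD and 0.07 for non-VSD, beside -0.05 and -0.07 over all microRNAs tested.

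Red blood cell microRNAs lay on the other side of NC from miR-190a-5p. All 4 listed members met the DE-microRNA definition in the lower direction in VSD and 3 of 4 did in non-VSD, beside 4.26% and 2.41% of all microRNAs, and none passed an adjusted p of 0.05 in edgeR. Their median log2 fold changes were -2.37 and -1.61. Without NC replicate 2, all 4 met the definition in both comparisons, 4 and 2 passed the adjusted threshold, and the medians were -2.64 and -1.82. NC replicate 2 had the lowest red cell sum of all libraries, so leaving it out deepens these differences by construction. miR-451-5p, a microRNA of red cell maturation, had a log2 fold change of -1.89 (SE 0.59, edgeR adjusted p = 0.0915) in VSD and -1.56 (SE 0.67, edgeR adjusted p = 0.225) in non-VSD.

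The summed level of the red blood cell list in NC replicates 1 to 7 was 66317, 2651, 55006, 18095, 33788, 27720 and 91132 CPM. In non-VSD it was 5389, 3255, 6051, 7003, 14602, 23394 and 33984 CPM, and in VSD it was 3435, 12961, 7021, 9818, 7522, 25158 and 5116 CPM. Non-VSD replicates 5 to 7 had the highest red cell sums of their group and its lowest miR-190a-5p, and VSD replicate 6 had the highest red cell sum of its group with 24.7 CPM of miR-190a-5p. VSD replicate 2, with the next highest red cell sum, 12961 CPM, had 74.2 CPM of miR-190a-5p. In NC, replicate 7 had the highest values of both, and replicate 2, with the lowest red cell sum of all, had 15.9 CPM of miR-190a-5p. The part of red cell content in the level of miR-190a-5p was not tested.

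**Figure D4:**
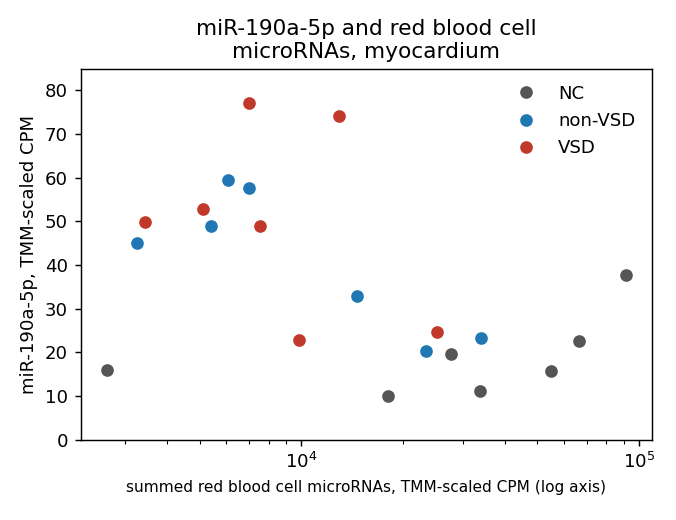
Level of miR-190a-5p (linear axis, TMM-scaled CPM) against the summed level of 4 red blood cell microRNAs (log axis, TMM-scaled CPM) in the 21 myocardium libraries, coloured by group. NC replicate 2 is the point at 2651 and 15.9 CPM, and NC replicate 7 the point at 91132 and 37.8 CPM.

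Of the other lists in myocardium, 2 of 4 white blood cell microRNAs were lower in VSD and 1 of 4 in non-VSD by the same definition, with median log2 fold changes of -0.98 and -0.63. Over all microRNAs, 4.26% and 2.41% were lower and 2.56% and 1.75% were higher in these comparisons. miR-142-5p, made in blood-forming cells, was in both counts, at -2.55 (SE 0.63) and -1.58 (SE 0.69). miR-142-3p, of the same hairpin, was at -1.81 (SE 0.58) and -0.94 (SE 0.65). The other members were near 0, with miR-150-5p at -0.14 (SE 0.21) and -0.33 (SE 0.20) and miR-223-3p at 0.18 (SE 0.19) and 0.04 (SE 0.17). Of the 9 muscle microRNAs, 2 and 1 were lower, with medians of -0.51 and -0.20. These were miR-1b, at -1.03 (SE 0.48) in VSD, and miR-206-3p, a skeletal muscle microRNA, at -2.91 (SE 1.09) in VSD and -2.55 (SE 1.18) in non-VSD. None of 8 epithelial microRNAs met the definition in either comparison, with medians of 1.20 and -0.25, and none of 2 endothelial microRNAs did, with medians of 0.26 and 0.37. The endothelial members were miR-126a-3p, at 0.35 (SE 0.18) and 0.77 (SE 0.20), and miR-126a-5p, at 0.18 (SE 0.27) and -0.03 (SE 0.21). Their summed level was 11475 to 23905 CPM in NC, 20264 to 31235 CPM in non-VSD and 14969 to 22036 CPM in VSD. Of the neural microRNAs, 1 of 7 tested was higher in VSD and 1 of 5 was lower in non-VSD, with medians of 0.50 and -0.12. These were miR-137-3p, at 1.88 (SE 0.66), and miR-7a-5p, at -1.14 (SE 0.38). None of 3 liver microRNAs met it, with medians of 0.04 and -0.30. Without NC replicate 2, the epithelial list differed most from this account. All 8 members then met the definition in the higher direction in VSD, with a median of 2.43, beside 47 of 474 microRNAs in all. None did in non-VSD, with a median of 0.82, beside 12 of 455 in all. NC replicate 2 had the highest epithelial sum of NC, so leaving it out raises these differences from NC by construction. VSD replicate 1, with a like sum, was kept. VSD replicates 1, 4 and 5 had the highest epithelial sums of their group, 15250, 12120 and 11596 CPM, with 49.8, 22.7 and 48.9 CPM of miR-190a-5p, all at or below the group median of 49.8 CPM. VSD replicates 2, 3 and 7, with the most miR-190a-5p of the group, had epithelial sums of 3265, 2521 and 3214 CPM. VSD replicate 6, with the lowest epithelial sum of the group, 1984 CPM, had 24.7 CPM of miR-190a-5p. In non-VSD, replicates 3 and 4 had the highest epithelial sums, 4230 and 6580 CPM, and the most miR-190a-5p, 59.5 and 57.6 CPM. Non-VSD replicate 1, with the lowest epithelial sum, 322 CPM, had 49.0 CPM. No member of these lists was at 0 throughout a myocardium group, and their part in the level of miR-190a-5p was not tested.

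Since miR-190a-5p is poor in G and C, the 10 microRNAs tested with the next lowest share, 23.8% to 30.4%, were described. Of these 10, 6 in VSD and 7 in non-VSD had a log2 fold change above 0, with medians of 0.27 and 0.19. None met the DE-microRNA definition in the higher direction, and 2 in VSD and 0 in non-VSD met it in the lower. Across the microRNAs with a known sequence, the Spearman correlation of this share with the log2 fold change was -0.15 over 431 microRNAs in VSD and -0.03 over 419 in non-VSD. MicroRNAs are not independent replicates, so no p is given.

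In amniotic fluid supernatant, miR-190a-5p rested on few reads. NC replicates 1 to 7 had 7, 0, 7, 0, 4, 0 and 17 counts, or 66.2, 0, 46.0, 0, 17.3, 0 and 203 CPM. VSD replicates had 6, 21, 38, 0, 8, 10 and 54 counts, or 33.3, 252, 175, 0, 62.7, 89.9 and 398 CPM. Non-VSD replicates had 70, 99, 72, 21, 0, 1 and 0 counts, or 401, 302, 558, 92.1, 0, 13.6 and 0 CPM. It was thus detected in 4 of 7 NC, 6 of 7 VSD and 5 of 7 non-VSD samples, and a count of 0 allows up to 3 counts, which is 14.2 to 35.0 CPM in the libraries at 0. In the DMO groups, 2 VSD and 3 non-VSD samples exceeded every NC sample.

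**Figure D5:**
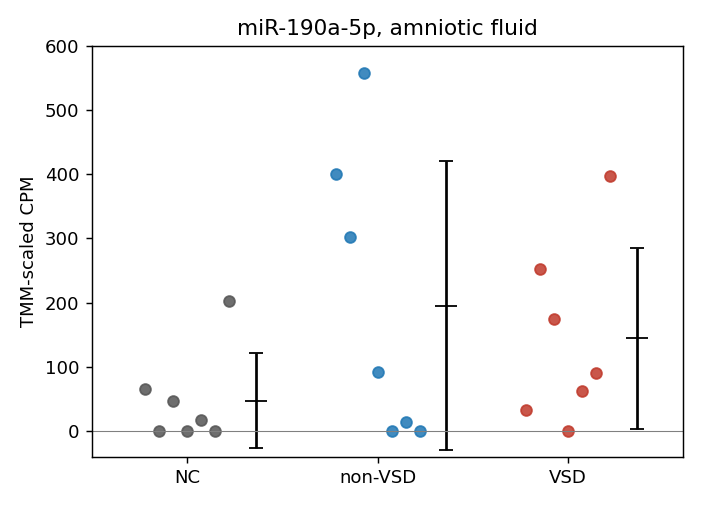
Level of miR-190a-5p in amniotic fluid by group, in TMM-scaled CPM on a linear axis, with the mean and SD of 7 samples. Each point is 1 sample, and points on the line at 0 had no count. The 3 groups overlapped, with means of 47.6 (NC), 195 (non-VSD) and 144 CPM (VSD).

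The means were 47.6 ± 73.4 CPM in NC, 144 ± 141 CPM in VSD and 195 ± 226 CPM in non-VSD (SD, n = 7 each), so the SD was close to or above the mean in every group. For VSD against NC, the log2 fold change was 1.66 (SE 1.09), with a 95% interval of -0.63 to 3.95 and an adjusted p of 0.50 by edgeR's quasi-likelihood test. An exact two-sided permutation test of mean log2 CPM gave a difference of 1.5 with p = 0.113 (0.452 after adjustment over the 4 tests). In this comparison 9 of 245 microRNAs (3.67%) met the DE-microRNA definition in the higher direction, and miR-190a-5p was not among them. The study itself, with its own differential analysis, lists miR-190a-5p as upregulated in amniotic fluid of both DMO groups. The call made here rested on single samples. Without NC replicate 7, the log2 fold change was 2.76 with an unadjusted p of 0.0300 in edgeR, which meets the definition, and an adjusted p of 0.252. The exact permutation test gave p = 0.0425 without that sample and p = 0.0309 without VSD replicate 4, both unadjusted.

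For non-VSD against NC, miR-190a-5p did not pass the filter on low counts. The exact permutation test gave a difference of 1.29 in mean log2 CPM with p = 0.253 (0.507 after adjustment), while 21 of 242 microRNAs (8.68%) met the definition in the higher direction. Between VSD and non-VSD, the edgeR log2 fold change was -0.45 (SE 1.18), with a 95% interval of -2.89 to 1.99 and an adjusted p of 0.910, and 9 of 273 microRNAs (3.3%) met the definition in either direction. The mean log2 CPM differed by 0.21 in the other direction, with p = 0.850 in the exact permutation test, so the 2 measures differ in sign. With all samples, no difference of miR-190a-5p between groups passed the tests in amniotic fluid at this depth. For VSD against NC, leaving out NC replicate 7 or VSD replicate 4 brought an unadjusted p below 0.05, as given above, and the interval with all samples for VSD against NC includes the log2 fold change seen in myocardium as well as 0.

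Marker sums of blood and endothelial cells were set beside miR-190a-5p in amniotic fluid. Non-VSD replicates 1 to 3 had the highest white blood cell sums of their group, 26683, 16827 and 22437 CPM, and VSD replicate 7 and NC replicate 7 the highest of theirs, 32392 and 6604 CPM. VSD replicates 2 and 3, with 252 and 175 CPM of miR-190a-5p, had low white blood cell sums of 1334 and 1698 CPM. The same non-VSD replicates had the highest sums of the 2 endothelial microRNAs in their group, 3530, 4065 and 4286 CPM, and so did VSD replicate 7, at 3945 CPM. VSD replicates 2 and 3 had the lowest endothelial sums of theirs, 156 and 253 CPM. miR-126a-3p, of the endothelial list, rose in non-VSD fluid by a log2 fold change of 1.54 (SE 0.44, edgeR adjusted p = 0.0464). The other member of that list, miR-126a-5p, was at -0.36 (SE 0.97, edgeR adjusted p = 0.868). Of the white blood cell list, miR-142-3p was at 2.36 (SE 0.85) in VSD and 2.86 (SE 0.88) in non-VSD fluid against NC. In the same order, miR-150-5p was at 0.52 (SE 0.81) and 0.89 (SE 0.53), and miR-223-3p at -0.32 (SE 0.53) and 0.47 (SE 0.45). Of all microRNAs tested in non-VSD fluid against NC, 12 of 242 passed the adjusted threshold. Red blood cell microRNAs met the DE-microRNA definition in the higher direction for 2 of 4 members in VSD and 4 of 4 in non-VSD, beside 3.67% and 8.68% of all microRNAs, with median log2 fold changes of 2.02 and 2.81. Of these, miR-451-5p and miR-486 passed the adjusted threshold in non-VSD, each with an edgeR adjusted p of 0.0272. The part of these cell types in the level of miR-190a-5p was not tested.

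Over the 21 amniotic fluid samples, the Spearman correlation of miR-190a-5p with miR-301a-3p was 0.09 and that with miR-342-3p was 0.07. It was 0.51 for miR-130a-3p and -0.55 for miR-146a-5p. Many ranks of miR-190a-5p in the fluid rest on counts below 10, so nothing is read from these values. miR-190b-5p had 1 count over all NC samples of amniotic fluid, 0 over non-VSD and 1 over VSD. In maternal serum it had 12 counts over 7 NC and 10 over 7 VSD samples, at most 5 in a sample, and was not tested. Levels in myocardium and fluid came from different extraction and library kits and instruments, so they are given side by side without a test.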

How the data were processed

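Per the labels and methods, myocardium (paraffin blocks, RecoverAll kit) and maternal serum (miRNeasy kit) were sequenced from TruSeq small RNA libraries on an Illumina HiSeq, and amniotic fluid (HiPure kit) from QIAseq libraries on an Illumina NovaSeq. The authors used bcl2fastq 2.19 and the Fastx-toolkit, and the submitters' notes name DESeq. The aligner, microRNA annotation and genome build are not given in the sources used here, nor whether molecular identifiers were counted in amniotic fluid. The deposited counts, whole reads per mature microRNA and sample, were analysed. The normalized signal deposited for myocardium, each count scaled by the authors to a library total, was used only for an alternative scaling. Another 42 per-sample columns (CPM of amniotic fluid and normalized values of serum) and the authors' fold changes and p-values were not used. The 2 amniotic fluid tables were joined on the microRNA name, and a microRNA listed in 1 of them was set to 0 in the samples of the other.

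In R 4.3.3, edgeR 4.0.16 fitted each tissue's counts after filterByExpr (minimum count 10, minimum total 15) and TMM scaling, with a prior count of 2 for log2 CPM. NC comparisons used the 2 groups compared, and VSD against non-VSD used all 3 groups of the tissue. Quasi-likelihood p-values were adjusted by Benjamini-Hochberg over all microRNAs tested. Alternatives used DESeq2 1.42.0, limma 3.58.1 on log2(CPM + 1), other filters and scalings, the replicate number as a block, and each sample left out. Exact permutation tests were run in Python 3.11.15. Spearman correlations and Poisson intervals used scipy 1.17.1, and plots matplotlib 3.10.9. The fits were tested on simulated data. Poisson intervals (95%) and the floor of 3 counts cover counting error only.

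miR-190a-5p, the gene lists and the comparisons were chosen with earlier results of these data known. The named microRNAs were miR-190a-5p, the other miR-190 arms and any microRNA with its seed, the 5 most and 3 least alike by Spearman correlation over myocardium libraries, the 5 most alike with group means subtracted, and the list members. Added after seeing the data were the scaling by the authors' totals and the counts without NC replicate 2 for the lists and for both comparisons. So was the description of the 10 microRNAs poorest in G and C, because no other microRNA is as poor in them as miR-190a-5p. Mature sequences were read from the RefSeq table of GRCr8, in which 596 of the 661 myocardium names (90.2%) were found.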

Additional observations from a re-analysis of the deposited data

Results flagged for a closer look

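A single sample stood far from the others of its group. In NC amniotic fluid, replicate 7 had 203 CPM of miR-190a-5p, from 17 counts, and the next sample had 66.2 CPM. Its gap of 0.674 of the group's whole range exceeded Dixon's 95% critical value for 7 samples on the CPM scale, and did not on the log2 scale. For normally distributed values, chance flags about 1 in 20 groups, and 9 groups were tested. Several CPM values of this group are 0, so that rate may not hold here. Without it, the edgeR log2 fold change of VSD against NC was 2.76 instead of 1.66, with an unadjusted p of 0.0300 and an adjusted p of 0.252. That sample also had the highest sum of white blood cell microRNAs in NC, 6604 CPM, and the part of those cells was not tested.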

How the results depend on the processing

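In myocardium the log2 fold change of miR-190a-5p was 1.34 to 1.77 over 8 alternatives for VSD against NC, 1.11 to 1.37 for non-VSD against NC and 0.21 to 0.40 for VSD against non-VSD. Leaving out each sample gave 1.16 to 1.58, 1.04 to 1.40 and 0.09 to 0.42. In amniotic fluid it was 1.57 to 2.6 for VSD against NC over 6 alternatives. With each of 7 samples left out it was 1.43 to 2.76, and the other 7 left it under the filter. For non-VSD against NC, where it did not pass the filter, the difference in mean log2 CPM was 0.84 to 1.75 with each sample left out. Over 3 alternatives the values ran from 1.32, a difference in mean log2 CPM with library totals, to 2.09. VSD against non-VSD in fluid was -0.95 to 0.07 with each sample left out, turning to 0.07 without non-VSD replicate 3, and 0.75 by limma. miR-190b-5p, near 0 in the main fits, was -0.11 to 0.16, 0.02 to 0.29 and -0.12 to 0.07 with each sample left out. Over 8 alternatives it was 0.05 to 0.52 for VSD against NC and 0.10 to 0.41 for non-VSD against NC. With libraries scaled by their totals alone, where the medians of all microRNAs moved to 0.32 and 0.13, miR-190b-5p was at 0.52 and 0.41. For VSD against NC it was -0.04, -0.07, -0.10, -0.11 and -0.10 without NC replicates 1, 2, 4, 5 and 6, and -0.05, 0.00, -0.08 and -0.02 without VSD replicates 1, 3, 5 and 6. For VSD against non-VSD it was 0.11 by library totals, 0.12 by the authors' totals and 0.07 without VSD replicate 7. The number of DE-microRNAs depended on the filter, which changes how many are tested. In myocardium it was 32 (52 unfiltered, 21 with at least 10 counts in every sample) for VSD against NC, 19 (35 unfiltered) for non-VSD against NC, and 25 (40 unfiltered, 13 with at least 10 counts) for VSD against non-VSD. In amniotic fluid it was 17 (84 unfiltered, 11 with at least 10 counts, 10 by limma), 30 (109 unfiltered) and 9 (88 unfiltered), and in serum 10 (34 unfiltered, 4 with at least 10 counts). With each sample left out it was 27 to 83, 16 to 26 and 16 to 37 in myocardium, 14 to 22, 25 to 37 and 7 to 16 in fluid, and 5 to 15 in serum. The 83 came without NC replicate 2, the 16 of VSD against non-VSD in myocardium without VSD replicate 1 or non-VSD replicate 1, and the 5 without VSD replicate 2. In fluid, VSD against non-VSD had 16, 15, 16, 16 and 14 without VSD replicates 2 and 6 and non-VSD replicates 1, 2 and 4. The split in myocardium was 12 higher and 20 lower for VSD and 8 and 11 for non-VSD, and 33 and 12, and 16 and 4, when scaled by library totals. Samples of different groups share a replicate number, but nothing says that they were paired, and not every pair with the same number deviated together (correlations of -0.62 to 0.47 in myocardium, -0.25 to 0.31 in fluid and -0.14 to 0.34, median 0.15, in serum). With the replicate block, miR-190a-5p was at 1.39, 1.18 and 0.21 in myocardium and 2.11 and -0.49 in fluid, and DE-microRNAs fell to 14 for VSD against non-VSD in myocardium and 19 for non-VSD against NC in fluid. The cause of these shifts was not tested. In fluid, at least 10 counts in every sample gave no value for miR-190a-5p, nor did DESeq2, limma and the block for non-VSD against NC, and miR-190a-5p has no alternatives in maternal serum.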
